A study of Homo sapiens with 3 samples.

Results

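The mRNAs of the nuclear-encoded subunits of the respiratory chain were examined in RCC4, an established line from a clear cell renal carcinoma. Members were taken by gene symbol from the deposited table and comprised the NDUF genes of complex I, the SDH genes of complex II, the UQCR genes and CYC1 of complex III, the COX4 to COX8 genes of complex IV and the ATP5 genes of complex V. The rule found 86 of the 60605 genes listed: 38 in complex I, 4 in complex II, 9 in complex III, 16 in complex IV and 19 in complex V. NDUFA4 stands with complex I by its symbol, although it is known as a subunit associated with complex IV, and ATP5IF1 encodes an inhibitor of ATP synthase rather than a structural subunit.

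All 3 libraries belonged to 1 group. The cells carried a Cas9 expression vector delivered by lentivirus and had received the inflammatory cytokines interferon gamma (IFN-γ, 1000 U/mL) and tumour necrosis factor (TNF, 25 ng/mL) for 24 h, with 3 flasks for each biological replicate. Cells without cytokines were not analysed here, so the values describe treated RCC4 cells and hold no response to treatment, and no test between groups was made. The line is a single tumour line, and the Cas9 vector was present in all libraries.

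Reads assigned to genes numbered 29199806, 26264283 and 33458691 in replicates 1, 2 and 3. Replicate 1 stood apart from replicates 2 and 3 in a way that followed the GC content of transcripts, described for the members below, and the medians without it are given where they matter. Of 10 markers of renal carcinoma epithelium, 9 were detected, and the tenth, NNMT, lay inside other genes and had 0 reads. Of 15 markers of leukocytes, endothelium, fibroblasts and muscle, 1 was detected (COL1A1, 0.754 RPKM), and their summed level was between 0.767 and 1.08 RPKM. The muscle markers MYH7, CKM, TNNT2 and ACTA1 were all below detection.

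As background, the respiratory chain passes electrons from NADH (complex I) and succinate (complex II) through ubiquinone to complex III, then through cytochrome c to complex IV, which reduces oxygen. Complexes I, III and IV pump protons across the inner mitochondrial membrane, and complex V uses the gradient to make ATP. Most subunits are made from nuclear genes and imported, while a few in every complex except complex II are made from mitochondrial DNA. RCC4 lacks functional VHL protein, and hypoxia-inducible factors therefore remain active in it at normal oxygen.

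Of the 86 members, 62 (72.1%) were detected, meaning a CPM of at least 1 in every library, CPM being reads scaled to library size. The same rule was met by 51.4% of all 19861 protein-coding genes. Detected members numbered 31 of 38 in complex I, 2 of 4 in complex II, 8 of 9 in complex III, 8 of 16 in complex IV and 13 of 19 in complex V. Members together held 0.633%, 0.584% and 0.604% of the assigned reads in replicates 1, 2 and 3 (0.607% ± 0.0246, SD, n = 3).

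Levels between genes were compared as RPKM, the CPM per kilobase of the union of a gene's annotated exons. Over the detected members the median was 26.3 ± 1.44 RPKM (SD, n = 3). For comparison, it was 6.05 ± 0.391 RPKM over the 10201 detected protein-coding genes and 17.0 ± 1.31 RPKM over the 62 detected of 78 mitochondrial ribosomal protein genes. Each library gave a similar median for the detected members, 25.9, 25.0 and 27.9 RPKM. Exon unions include rarely used exons, and for 39 members the level per kilobase of the principal transcript alone was over 1.5 times that per exon union. On that scale, chosen after the data were seen, the median of the detected members was 51.8 ± 2.00 RPKM. It was then 9.56 ± 0.603 RPKM for the detected protein-coding genes and 33.3 ± 2.38 RPKM for the detected mitochondrial ribosomal protein genes. The order of many members depends on the length used, and orders below are per exon union unless said otherwise.

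**Figure D1:**
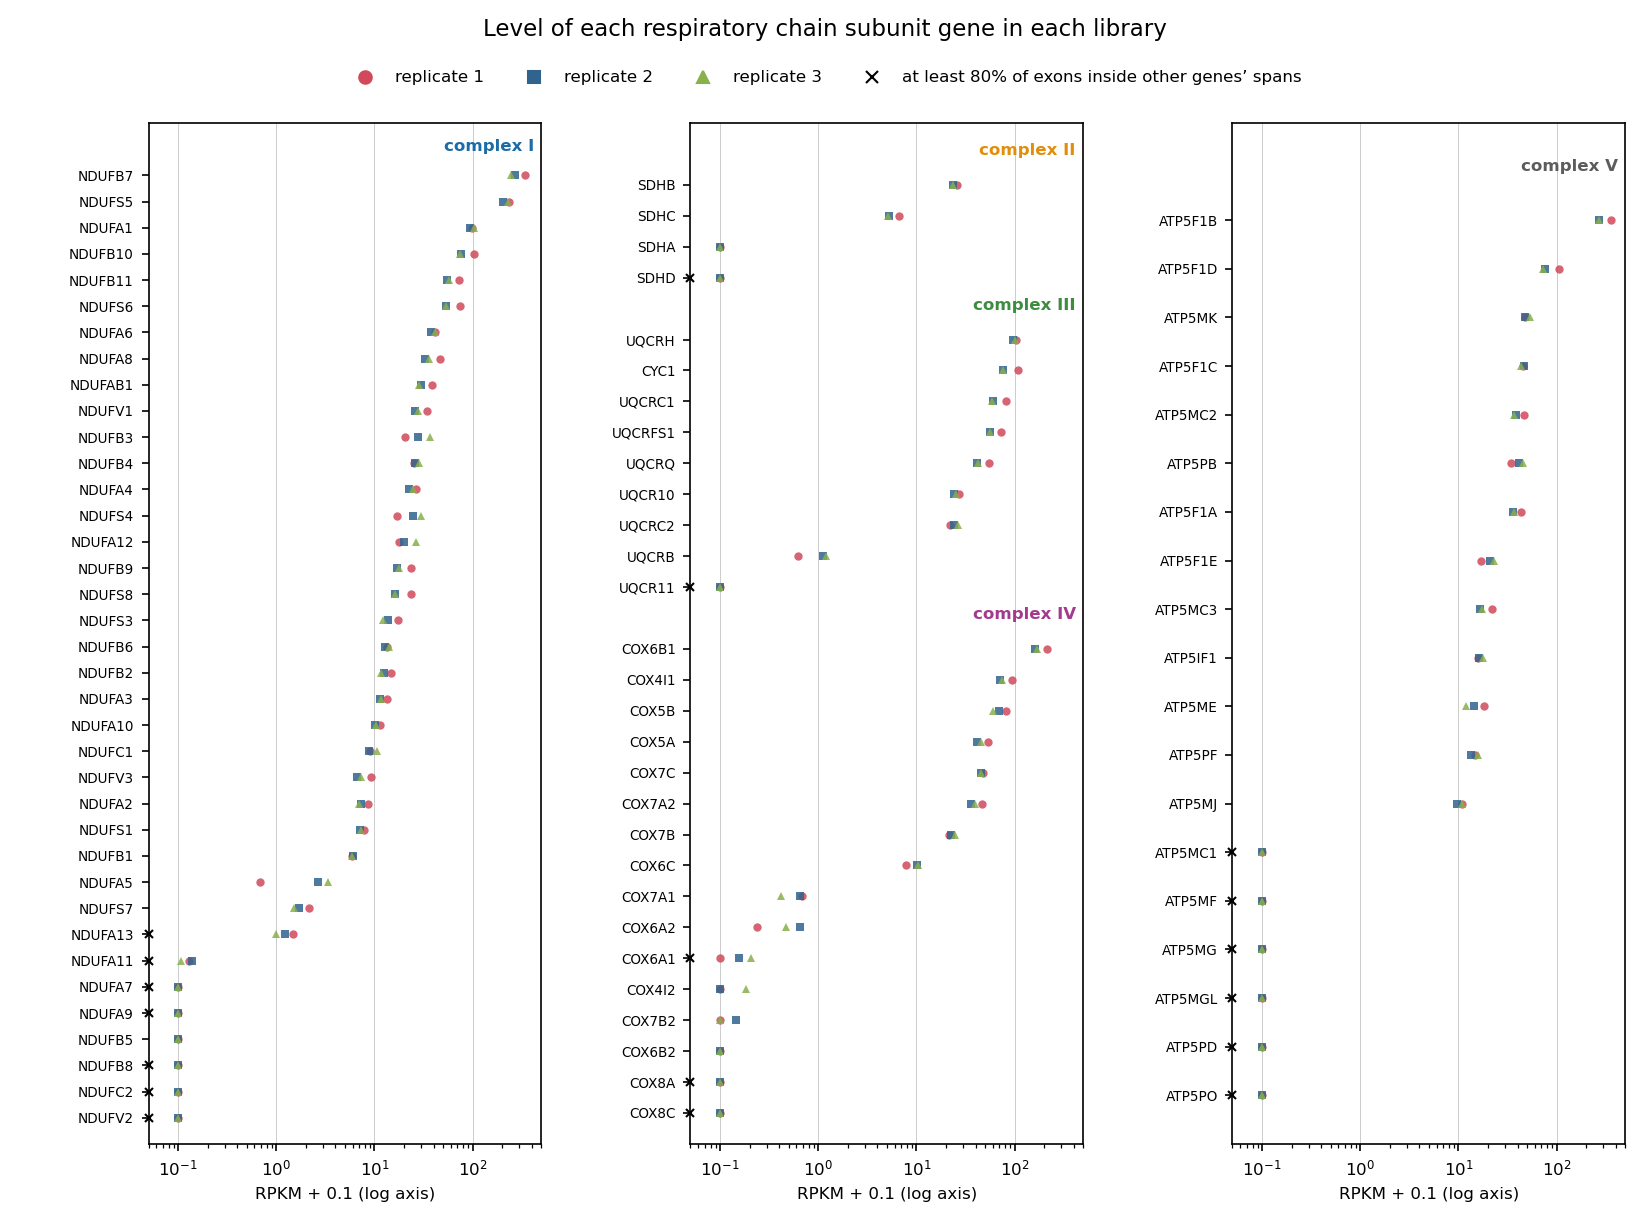
RPKM + 0.1 on a log axis (horizontal) for the members (rows, by complex), with 1 symbol per replicate. Crosses at the left edge mark the 18 members that lie at least 80% inside other genes' spans by exon length, of which only NDUFA13 was detected, and points at 0.1 are members listed at 0.

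Complex I, the NADH dehydrogenase, had detected members from 1.13 to 286 RPKM on average. NDUFB7 (GRCh38 chr19:14566078-14572062, minus strand), an accessory subunit of the membrane arm, was at 340.0, 271 and 247 RPKM in replicates 1, 2 and 3. NDUFS5, an accessory subunit facing the intermembrane space, was at 232, 206 and 227 RPKM, and NDUFA1, a small membrane subunit, was at 98.7, 93.1 and 104 RPKM. These 3 had the highest levels of the complex in RPKM, and for each the exon union was the principal transcript, so their values do not depend on the choice of length. Per principal transcript NDUFB10 (128 RPKM), NDUFB9 (112 RPKM) and NDUFS8 (106 RPKM) lay above NDUFA1.

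The catalytic parts of complex I were mostly detected. Of the 8 genes of the N module, which oxidises NADH, 7 were detected, and all 5 genes of the Q module, which reduces ubiquinone, were. NDUFV1, the subunit that binds NADH and the flavin, was at 34.4, 25.5 and 27.5 RPKM. NDUFS1, the large iron-sulphur subunit of the N module, was at 7.71, 6.96 and 7.18 RPKM, below NDUFV1 in all 3 libraries. The accessory subunits NDUFS6 (75.0, 53.1 and 53.0 RPKM) and NDUFS4 (16.8, 24.5 and 29.5 RPKM) of the same module ran in opposite order across the libraries: replicate 1 was the highest for NDUFS6 and the lowest for NDUFS4.

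In the Q module the iron-sulphur subunit NDUFS8 was at 23.6, 16.0 and 16.3 RPKM and the core subunit NDUFS3 at 17.3, 13.8 and 12.02 RPKM. NDUFS8 lay above NDUFS3 in all 3 libraries. Per kilobase of principal transcript the levels were 106 ± 24.8 RPKM for NDUFS8 and 55.0 ± 10.3 RPKM for NDUFS3 (SD, n = 3). NDUFS7, the subunit of the terminal iron-sulphur cluster, was at 2.05, 1.60 and 1.43 RPKM, with 65.9% of its exon length inside other genes. NDUFA5, an accessory subunit of the module, had 156, 684 and 1108 reads (0.583, 2.56 and 3.23 RPKM), and replicate 1 stood far below the other two.

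Among the other complex I genes, NDUFB10 was at 84.3 ± 16.7 RPKM, NDUFB11 at 61.6 ± 9.57 RPKM and NDUFA6 at 40.3 ± 2.31 RPKM. NDUFAB1, the mitochondrial acyl carrier protein, was at 32.0 ± 5.25 RPKM. NDUFB9 was at 19.4 ± 3.73 RPKM per exon union. NDUFA13, also known as GRIM-19, had 101, 83 and 85 reads (1.13 ± 0.236 RPKM), the lowest level among the detected genes of the complex, and 81.9% of its exon length lay inside other genes.

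Complex II, succinate dehydrogenase, was represented by its iron-sulphur subunit and 1 membrane anchor. SDHB was at 25.6, 23.3 and 23.6 RPKM, and the anchor SDHC was at 6.56, 5.19 and 5.03 RPKM. The other anchor, SDHD, and the flavoprotein subunit SDHA had 0 reads in each library. SDHB lay above SDHC in all 3 libraries.

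Of SDHA (GRCh38 chr5:218241-256700, plus strand), no exon overlapped another gene in GENCODE 29. A count of 0 allows up to 3 reads per library, and covers counting error only. SDHAP1 and SDHAP3, pseudogenes that resemble SDHA, had 542, 736 and 902 reads and 251, 673 and 836 reads in replicates 1, 2 and 3, while SDHAP2 had 0 reads. Reads of near-identical copies can be left out or moved by counting, so the 0 of SDHA is uncertain, and the part of its copies in it was not tested.

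Complex III had the highest median of the 5 complexes over all members in each library, 54.5, 40.9 and 42.2 RPKM (45.9 ± 7.53, SD, n = 3). UQCRH, the hinge protein that meets cytochrome c1, was at 104, 95.9 and 101 RPKM. Its retrocopy UQCRHL, which is no member, had 224, 207 and 262 reads beside 3985, 3666 and 4938 for UQCRH, and reads can be exchanged between them. CYC1, which is cytochrome c1 itself, was at 109, 75.4 and 76.7 RPKM, and replicate 1 stood above the others.

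UQCRFS1, the Rieske iron-sulphur protein, was at 71.7, 56.4 and 56.1 RPKM. The core proteins UQCRC1 (82.1, 59.9 and 58.9 RPKM) and UQCRC2 (21.6, 24.0 and 26.3 RPKM) are present in equal number in the assembled complex, yet UQCRC1 mRNA was above UQCRC2 mRNA in all 3 libraries. The small subunits UQCRQ and UQCR10 were at 45.9 ± 7.53 and 25.4 ± 1.70 RPKM. Per principal transcript UQCRQ (80.5 RPKM) lay above UQCRFS1 (61.4 RPKM). UQCRB, which takes part in ubiquinone binding, had 137, 267 and 368 reads (0.519, 1.01 and 1.09 RPKM), and its mean of 0.873 RPKM was the lowest among detected members, below NDUFA13 in replicates 1 and 2 but not in replicate 3. UQCR11 had 0 reads in each library.

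Complex IV, cytochrome c oxidase, divided into 8 detected and 8 undetected genes. COX6B1 was the highest per exon union, at 211, 159.8 and 170.0 RPKM, followed by COX4I1, the main regulatory subunit, at 93.1, 71.6 and 74.8 RPKM. Per kilobase of principal transcript COX4I1 was at 438 ± 63.6 RPKM and COX6B1 at 253 ± 38.4 RPKM, so the order of both turned over with the length used. COX4I1 had the most reads of the complex, 12109, 9316 and 12465.

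COX5B, COX5A, COX7C and COX7A2 followed at 70.1 ± 10.3, 46.6 ± 5.93, 46.2 ± 1.62 and 40.4 ± 5.03 RPKM (SD, n = 3). COX5A and COX7C differed by less than their spread over libraries. Per principal transcript the order was COX5B (142 RPKM), COX7A2 (84.9 RPKM), COX7C (58.2 RPKM) and COX5A (51.9 RPKM). COX7B was at 22.7 ± 1.62 RPKM and COX6C was the lowest of the detected genes, at 9.31 ± 1.39 RPKM.

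In complex V, ATP synthase, the highest member was ATP5F1B. This gene (GRCh38 chr12:56638175-56646068, minus strand) encodes the catalytic beta subunit and was at 356, 267 and 269 RPKM with 22449, 16857 and 21706 reads. Its mean of 297 ± 50.8 RPKM and that of NDUFB7 (286 ± 48.4 RPKM) differed by less than their spread, and NDUFB7 was the higher in replicate 2. All 5 genes of the F1 head were detected. ATP5F1D, the delta subunit of the central stalk, was at 106, 76.0 and 72.7 RPKM, and ATP5F1C, the gamma subunit that turns inside the head, was at 45.4, 46.9 and 43.5 RPKM.

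The alpha subunit ATP5F1A alternates with the beta subunit in the head in equal number. Its mRNA was at 42.9, 35.6 and 36.7 RPKM, below ATP5F1B in all 3 libraries. ATP5F1A was also lower per kilobase of principal transcript, at 72.0 ± 7.34 RPKM against 375 ± 64.2 RPKM for ATP5F1B. ATP5F1E, the epsilon subunit, was at 20.2 ± 3.27 RPKM.

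Of the peripheral stalk, ATP5PB was at 40.4 ± 5.55 RPKM and ATP5PF at 14.5 ± 1.27 RPKM, while ATP5PO and ATP5PD had 0 reads in each library. Of the small membrane subunits, ATP5MK was at 49.6 ± 3.47 RPKM, ATP5ME at 14.8 ± 3.22 RPKM and ATP5MJ at 10.4 ± 0.765 RPKM. Per principal transcript ATP5MJ (50.2 RPKM) lay above ATP5ME (38.1 RPKM). The inhibitor ATP5IF1 was at 16.5 ± 0.997 RPKM per exon union and 74.3 ± 4.49 RPKM per principal transcript.

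The complexes were set side by side by the log2 difference between the median of a complex and the median of all members. Both medians were taken over the log2 values of RPKM + 0.1 in each library. A difference was read as larger than the replicate spread where its mean was over 2 SD and no library went the other way. Complex III lay above the median of all members by 1.51 ± 0.17 (SD, n = 3). Complexes II and IV lay below it, at -4.41 ± 0.07 and -2.77 ± 0.17. In these complexes, of 4 and 16 members, the median of the log2 values is the midpoint between a detected and an undetected gene. It therefore lies below the log2 of their median RPKM (2.80 and 4.90). The size of both differences depends on the pseudocount, since these complexes hold many members at or near 0: with a pseudocount of 1 they were -2.72 and -2.11. Over exon outside other genes' spans complex IV was at -0.75. This alternative leaves out members with under 100 bases of such exon, all of them at 0 reads, COX8A and COX8C of complex IV among them. Complexes I (-0.20 ± 0.11) and V (0.07 ± 0.06) did not differ from the median of all members by more than the spread.

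Over the detected members alone, complex II stayed below the median of all detected members, at -1.17 ± 0.17 on the log2 scale. Complex IV had a median of 46.4 ± 3.70 RPKM and lay above that median by 0.82 ± 0.14, so its direction turned. Complex III was at 53.7 ± 8.21 RPKM, complex V at 35.5 ± 1.03 RPKM, complex I at 21.7 ± 2.60 RPKM and complex II at 14.9 ± 1.03 RPKM over 2 genes. The place of complex III above complex IV over detected members depended on the length used. Per principal transcript complex III was at 83.7, 64.1 and 65.05 RPKM and complex IV at 78.6, 66.8 and 69.3 RPKM. Complex IV was then the higher in replicates 2 and 3, and complex III in replicate 1. Without replicate 1 the median of complex III over all members was 41.5 RPKM, and its log2 difference was 1.41.

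Most of the members without reads shared a position that the naming rule did not use. In all, 18 members had 0 reads in each library: ATP5MC1, ATP5MF, ATP5MG, ATP5MGL, ATP5PD, ATP5PO, COX6B2, COX8A, COX8C, NDUFA7, NDUFA9, NDUFB5, NDUFB8, NDUFC2, NDUFV2, SDHA, SDHD and UQCR11. Among them are NDUFV2, a core iron-sulphur subunit of the N module, ATP5PO, the protein that joins the peripheral stalk to the head, and COX8A, the usual COX8 isoform. Of these 18, 15 were covered, meaning that other genes' spans on either strand took in at least 80% of their exon length in GENCODE 29. Over all members 20.9% were covered, beside 16.0% of protein-coding genes and 24.4% of mitochondrial ribosomal protein genes. The share of all protein-coding genes with 0 reads is not given here. A span includes the introns of a gene. The share of exon length inside other genes' exons was lower in these 15, from 0% (ATP5MC1, ATP5MGL and COX8C) to 48.5% (NDUFB8).

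Of the 18 covered members, 1 was detected. Among all protein-coding genes, 8.69% of the covered and 59.5% of the others were detected, against 61 of 68 members that were not covered. The mitochondrial ribosomal protein genes were alike in this. Of these 78 genes 19 were covered, and the 59 that were not covered were all detected, out of 62 detected. The covered genes NDUFA11 (4, 5 and 1 reads) and COX6A1 (0, 2 and 5 reads) had reads but stayed below detection. Of the 12 members with between 40% and 80% of their exon length inside other genes, 10 were detected. The same share over all protein-coding genes in that range is not given here. NDUFB6, with 71.4% of its exons inside other genes, was at 13.3 ± 0.626 RPKM, and NDUFA13, just past the 80% line, was at 1.13 ± 0.236 RPKM. They also differed in strand: spans on the same strand took in 0% of the exon length of NDUFB6 and 81.9% of that of NDUFA13. Of the 12 members, only COX6B2, at 0 reads, had more than 3.19% of its exon length inside same-strand spans (45.0%). Share and strand of the overlap were not tested apart.

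Many of the overlapping genes are readthrough transcripts or loci named by clone. NDUFC2 lies largely within the readthrough NDUFC2-KCTD14, which had 12, 6 and 0 reads, and ATP5MF lies largely within ATP5MF-PTCD1, which had 0 reads in each library. NDUFA9 lies within RP11-234B24.6, which had 16, 32 and 24 reads. Other overlapping genes were well covered by reads: ATP5MGL lies within CYB5R3 on the same strand (12857, 10504 and 13243 reads). NDUFA7 overlaps RPS28 (11105, 8728 and 11008 reads) and NDUFB8 overlaps HIF1AN (2422, 1880 and 2148 reads), both on the opposite strand. Spans on their own strand also took in 98.8% of the exon length of NDUFA7 and 94.0% of that of NDUFB8. The genes there had few reads: CTD-2550O8.5 at NDUFA7 (3, 0 and 4) and RP11-411B6.6 at NDUFB8 (8, 2 and 8). ATP5MC1 and ATP5PD were covered from the opposite strand only, ATP5PD by KCTD2 with 1742, 1534 and 1882 reads, and both were at 0. Whether a covered gene at 0 was silent or its reads were not assigned to it was not tested.

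Only 7 members were neither covered nor detected. COX4I2, COX6A2, COX6B2, COX7A1 and COX7B2 are the tissue-restricted forms of complex IV subunits, known from lung, muscle or testis. The other two were SDHA, described above, and NDUFB5 (GRCh38 chr3:179604690-179627647, plus strand), an accessory subunit of the membrane arm of complex I. NDUFB5 had 0 reads in each library and no overlap with another gene in GENCODE 29, whose release need not be the authors'.

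**Figure D2:**
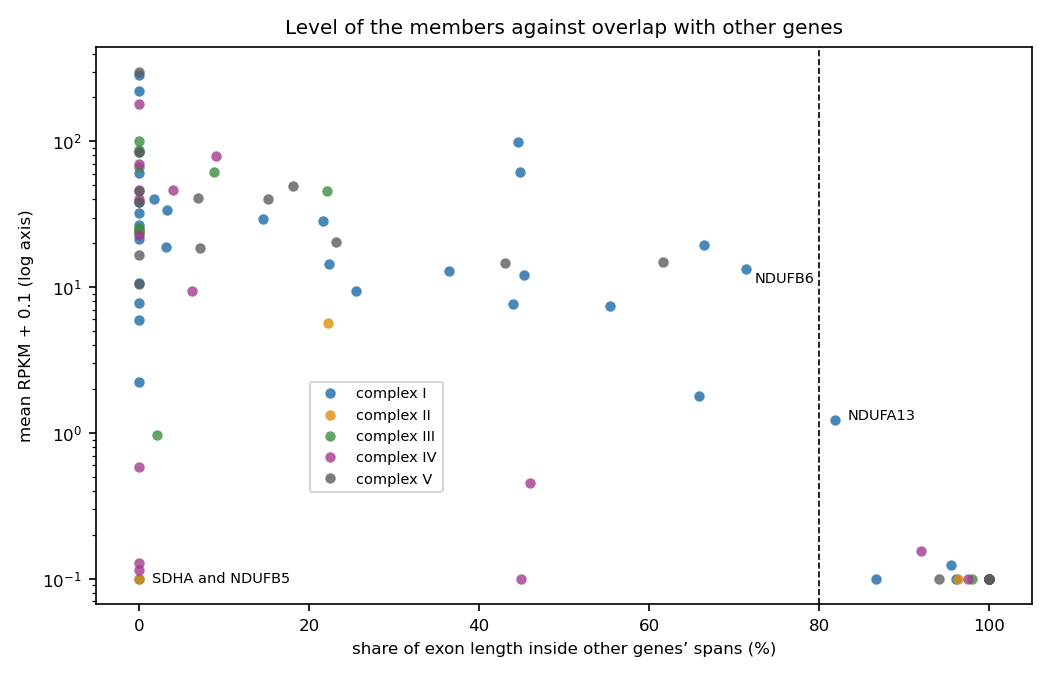
Mean RPKM + 0.1 over 3 libraries (vertical, log axis) of the 86 members against the share of exon length inside other genes' spans in percent (horizontal), coloured by complex, with the 80% line dashed. To the right of the line only NDUFA13 was detected, and many of the points there lie on top of each other at 0 reads. SDHA and NDUFB5 lie at 0 reads without any overlap.

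The paralogues of complex IV were strongly unequal where both could be measured. COX4I1 had 33890 reads in all and COX4I2, the hypoxia-responsive lung form, had 0, 0 and 2. Per kilobase this is a ratio of 2451, with a 95% exact interval from 678 to 20236 that covers counting error only, and with the principal transcript lengths it is 13451 (3723 to 111075). Without replicate 1 the ratio was 1575, and without replicate 3, which held both reads of COX4I2, none could be formed. COX7B had 6159 reads and COX7B2, the testis form, had 0, 1 and 0, a ratio per kilobase of 1644 (295 to 64930). Without replicate 3 it was 955, and without replicate 2 none could be formed.

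COX6B2 was listed at 0 in each library against 14971 reads in all for COX6B1. No ratio is given, since SDHA and NDUFB5 were also listed at 0, and 45.0% of the exon length of COX6B2 lay inside another gene. COX7A1, the muscle form, had 16, 15 and 11 reads (0.586, 0.549 and 0.314 RPKM). COX7A2, the form found in most tissues, was above it by 6.07, 5.81 and 6.56 in log2 of RPKM + 0.1, 6.15 ± 0.38 on average (SD, n = 3), which is beyond the replicate spread. With a pseudocount of 1 the difference was 4.80, and per principal transcript it was 6.88. COX6A2, the muscle form of COX6A, had 2, 8 and 7 reads, and no ratio was formed with COX6A1, which is covered.

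NDUFA4L2 resembles NDUFA4, is known as a target of hypoxia-inducible factor and is no member. It had 10964, 8530 and 11051 reads, or 144, 112 and 113 RPKM, against 26.3, 22.6 and 24.7 RPKM for NDUFA4. NDUFA4L2 was therefore 5.47-, 4.96- and 4.59-fold higher, a mean of 5.00 ± 0.441-fold (log2 2.31 ± 0.13, SD, n = 3), beyond the replicate spread. Per principal transcript the mean was 7.09-fold. Per exon union its level stood between those of NDUFS5 and NDUFA1 among the complex I genes.

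The c ring of ATP synthase is built from identical mature proteins encoded by ATP5MC1, ATP5MC2 and ATP5MC3. ATP5MC2 was at 46.9, 38.4 and 36.5 RPKM and ATP5MC3 at 21.7, 16.5 and 17.3 RPKM. ATP5MC3 was thus lower by a log2 difference of -1.13 ± 0.08 (SD, n = 3), a ratio of 0.455, beyond the replicate spread. Per principal transcript the difference was -1.86 ± 0.08. ATP5MC1 was covered and had 0 reads, so its share was not measured.

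**Figure D3:**
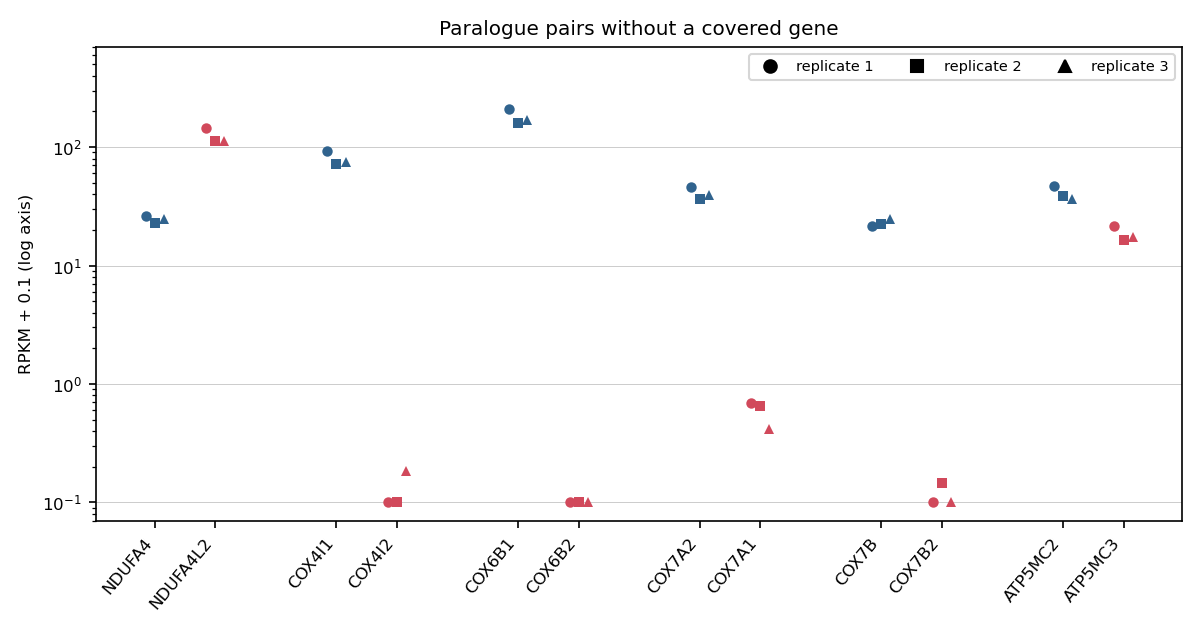
RPKM + 0.1 (vertical, log axis) in each replicate for 6 pairs of paralogues in which neither gene was covered, the second gene of each pair in red. NDUFA4L2 lies above NDUFA4 and ATP5MC3 below ATP5MC2 in all 3 libraries, and points at 0.1 are libraries with 0 reads.

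The nuclear members were set beside the 13 mRNAs of the chain encoded in mitochondrial DNA. Summed over genes, the nuclear members reached 6805, 5647 and 5811 CPM and the mitochondrially encoded mRNAs 39303, 33108 and 30728 CPM. The mitochondrially encoded sum was higher in each library, 5.64 ± 0.310-fold on average (SD, n = 3), from 13 genes against 86. Per kilobase of exon union the difference was 12.8 ± 0.778-fold. Poly(A) selection takes mitochondrial mRNAs by their short tails where they carry one, and covered members are missing from the nuclear sum.

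By complex, this ratio was lowest in complex V and highest in complex IV. In complex V, with 2 mitochondrial genes, the mitochondrially encoded sum was 1.86 ± 0.145 times the nuclear sum in CPM. It was 3.90 ± 0.321 times in complex III with MT-CYB alone, 6.51 ± 0.605 times in complex I with 7 genes, and 14.5 ± 0.693 times in complex IV with 3. Per kilobase the order differed, with complex III lowest at 8.05 ± 0.639 times and complex IV again highest at 29.3 ± 1.20 times. Of single mitochondrial mRNAs MT-CO2 was the highest, at 7441, 5865 and 5442 RPKM, and MT-ATP8 the lowest, at 1247, 1105 and 906 RPKM. MT-ATP8 overlaps MT-ATP6, so reads of these 2 genes cannot be fully told apart.

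**Figure D4:**
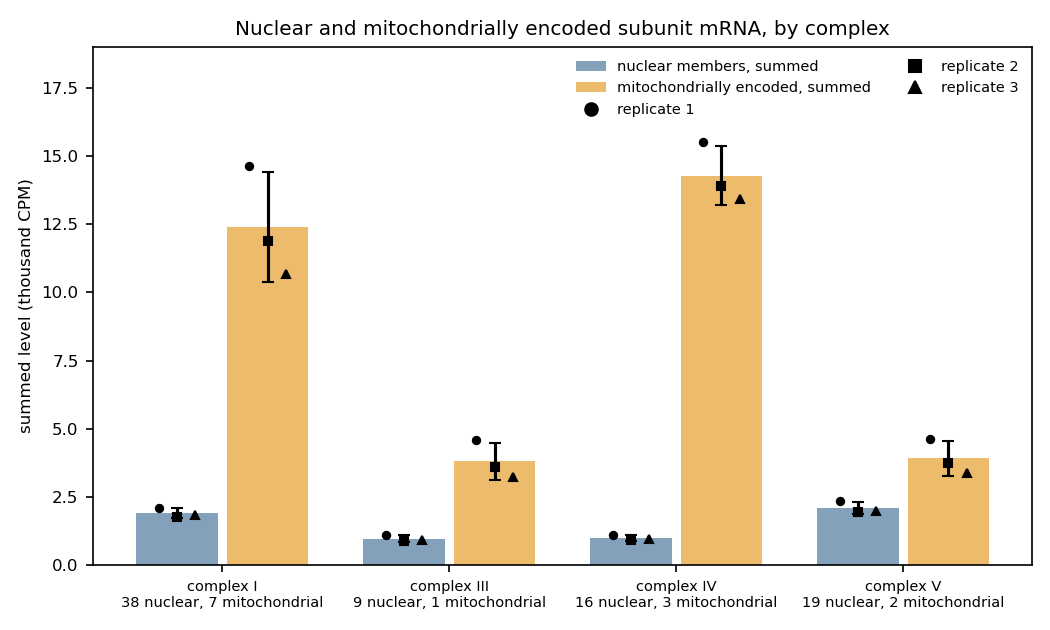
Summed CPM (vertical, axis in units of 1000) of the nuclear members and of the mitochondrially encoded mRNAs for the 4 complexes that hold both. Bars give the mean, error bars the SD over 3 libraries, and symbols the replicates. The mitochondrially encoded sum exceeds the nuclear sum in every complex, least in complex V.

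Genes for the assembly and control of the chain were taken from fixed lists. Of 50 assembly factors, 41 were detected: 14 of 14 for complex I, 3 of 4 for complex II, 5 of 6 for complex III, 16 of 22 for complex IV and 3 of 4 for complex V. Over these detected factors the median of the mean levels was 8.24 RPKM. For the detected subunits the mean of the library medians was 26.3 RPKM, and both values are per exon union. The highest were ECSIT, a complex I factor, at 49.2, 34.5 and 31.4 RPKM, TBRG4, which stabilises mitochondrial mRNAs, at 43.7, 33.2 and 32.5 RPKM, and NDUFAF2, a complex I factor, at 28.1, 29.8 and 30.4 RPKM. This order is that of the means per exon union. Per principal transcript TBRG4 was the highest (94.3 RPKM). COA4 (68.3 RPKM), COA3 (62.2 RPKM), NDUFAF8 (59.1 RPKM) and UQCC1 (55.8 RPKM) then lay above ECSIT (53.5 RPKM) and NDUFAF2 (41.6 RPKM). SDHAF2, LYRM7, COX15, COX16, PET100 and PET117 had 0 reads in each library, and 4 of these 6 were covered.

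CYCS, the cytochrome c that carries electrons between complexes III and IV, was at 15.4, 27.8 and 32.9 RPKM, lowest in replicate 1. Of 12 regulators of mitochondrial gene expression, 11 were detected. PPARGC1A, the coactivator PGC-1 alpha, had 0 reads in each library and was not covered. The highest were POLRMT, the mitochondrial RNA polymerase, at 52.8, 36.6 and 34.5 RPKM, PPRC1, a coactivator related to PGC-1 alpha, at 34.7, 26.5 and 25.3 RPKM, and ESRRA, a nuclear receptor, at 25.4, 19.4 and 18.6 RPKM. GABPA, the ETS subunit of nuclear respiratory factor 2, had 81, 522 and 688 reads.

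Promoters were examined because many respiratory chain genes are known to be controlled by NRF1, by ETS factors such as GABP and by YY1. RefSeq windows of GRCh38.p14, from 250 bases before to 50 after a transcript start, were found for 69 of the 86 members. The NRF1 letters GCGCATGCG, searched on both strands, were in windows of 11 members (15.9%) and of 3.11% of the 15843 protein-coding genes with a window. The ETS letters CCGGAAG were in 21 members (30.4%) and 16.5% of genes, and the YY1 letters AAGATGGC in 12 members (17.4%) and 4.66% of genes. At least 1 of the 3 motifs was in 37 members (53.6%) and 22.2% of genes. The windows of mitochondrial ribosomal protein genes held NRF1 letters in 4.35%, ETS letters in 43.5% and YY1 letters in 30.4%. At least 1 motif was in 63.8% of them, a higher share than in the members.

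A few windows show how these letters stand, each as the 120 bases before the start, written 5′ to 3′ on the strand of the gene, with the motif letters in capitals. NDUFB7 is the highest member in complex I and holds the ETS letters (chr19:14572067-14572186, minus strand). NDUFS6 (chr5:1801287-1801406, plus strand) and ATP5F1C (chr10:7788057-7788176, plus strand) are the highest members with the NRF1 letters, which in ATP5F1C overlap on both strands. ATP5PF (chr21:25735055-25735174, minus strand) holds all 3 motifs.
NDUFB7: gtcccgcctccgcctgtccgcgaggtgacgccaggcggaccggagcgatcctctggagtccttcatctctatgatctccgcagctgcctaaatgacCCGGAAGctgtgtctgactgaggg
NDUFS6: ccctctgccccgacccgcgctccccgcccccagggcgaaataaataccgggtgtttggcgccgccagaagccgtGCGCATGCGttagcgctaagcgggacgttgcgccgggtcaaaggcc
ATP5F1C: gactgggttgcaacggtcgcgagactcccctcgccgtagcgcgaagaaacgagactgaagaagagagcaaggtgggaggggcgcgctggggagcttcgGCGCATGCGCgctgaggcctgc
ATP5PF: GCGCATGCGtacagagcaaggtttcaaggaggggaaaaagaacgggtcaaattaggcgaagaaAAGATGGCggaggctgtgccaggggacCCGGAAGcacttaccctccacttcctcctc

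Levels of members with and without the letters were not compared. Over the detected members with a window the shares were 17.6% for NRF1, 29.4% for ETS and 15.7% for YY1. A match of letters describes the sequence and does not show that a factor bound there.

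Replicate 1 differed from the mean of replicates 2 and 3 by a median log2 ratio of 0.22 over the 62 detected members, with 47 (75.8%) higher and 15 lower. Over the 10201 detected protein-coding genes the median was 0.06 with 53.9% higher, and 67.7% of the detected mitochondrial ribosomal protein genes were higher. Only NDUFA5 and UQCRB were below 50% of the mean of the other libraries (2 of 62, or 3.23%), beside 13.2% of protein-coding genes. No member was over 2-fold above it, beside 0.118% of protein-coding genes. Replicates 2 and 3 were within 1.25-fold of each other for 58 of the 62 members. The same share among all detected protein-coding genes is not given here, so it cannot be called particular to the members.

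The ratio followed the GC content of the members' transcripts. The 5 lowest log2 ratios were those of NDUFA5 (-2.29, GC 36.6%), UQCRB (-1.002, GC 38.1%), NDUFS4 (-0.69, GC 42.8%), NDUFB3 (-0.65, GC 42.3%) and NDUFA12 (-0.40, GC 44.6%). The 5 highest were those of NDUFS8 (0.55, GC 62.7%), CYC1 (0.52, GC 62.5%), ATP5F1D (0.51, GC 68.1%), NDUFS6 (0.50, GC 53.9%) and ATP5ME (0.48, GC 55.6%). Across the 62 members the ratio and GC content had a Spearman correlation of 0.783 and a Pearson correlation of 0.649. Across all detected protein-coding genes these were 0.740 and 0.666. All points share the same 3 libraries, genes are not independent replicates, and the correlations are descriptions.

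In the lowest of 5 GC classes the median log2 ratio was -0.26 over 10 members and -1.001 over all genes of the class. In the highest class it was 0.43 over 9 members and 0.38 over all genes. After the GC trend of all genes was removed, the median of the members was 0.15 and their SD fell from 0.449 to 0.287. Differences between replicate 1 and the others therefore went with base composition both in the members and in all genes. In the lowest GC class the drop was smaller in the members, but GC content within the class was not matched. That class ran from 32.0% to 42.5%, and the median of all genes was -1.67 near 36.6% and -0.58 near 42.2%. The part of RNA quality or library preparation in these differences was not tested.

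**Figure D5:**
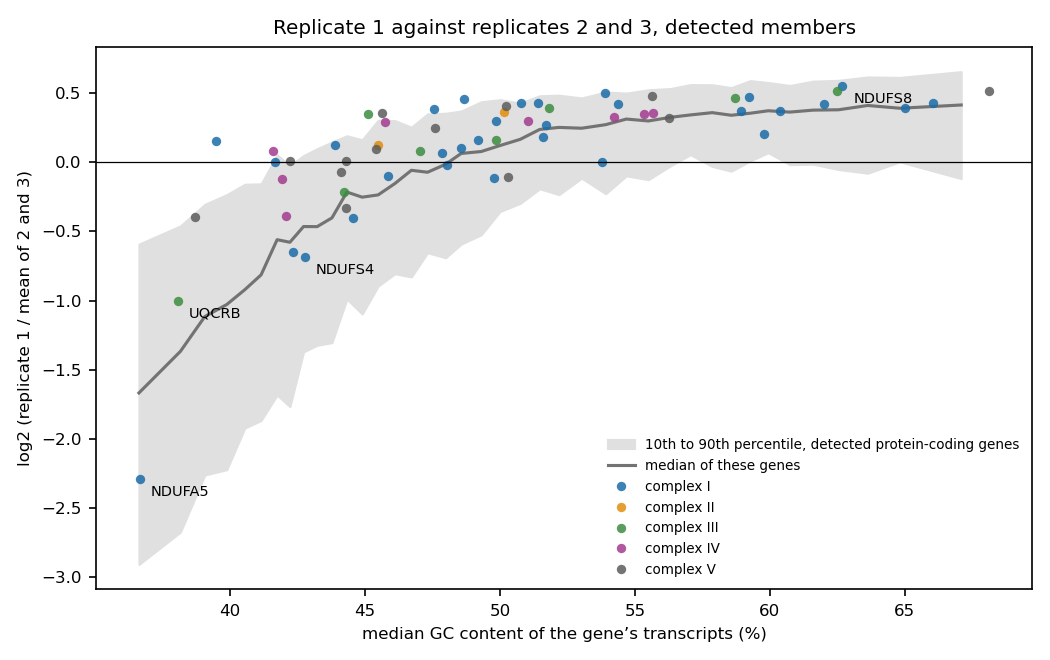
Replicate 1 over the average of replicates 2 and 3, as a log2 ratio (vertical), against the GC content of transcripts in percent (horizontal) for the 62 detected members, coloured by complex. The grey line and band give the median and the 10th to 90th percentile of detected protein-coding genes. NDUFA5 and UQCRB, of low GC content, lie farthest below 0, and NDUFS8, of high GC content, lies highest. Some members of low GC content, NDUFA4 and COX7C among them, lie above 0.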

How the data were processed

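The authors deposited a signal for each gene that is not whole: reads scaled by 1 size factor per library. Dividing by the smallest step gave whole numbers for 100% of the nonzero values (within 0.01 of a read), and the size factors came out at 0.946, 0.971 and 1.24. The planned design assumed counts, and these recovered reads took their place. Per the labels' protocols, poly(A) RNA was sequenced from a directional kit. The submitters' processing notes name hg38, FastQC, cutadapt (1.18), HISAT2 (2.1.0) and featureCounts (2.0.0). Which annotation release and strand setting were used, and how overlapping genes were counted, is not given in the sources used here.

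Library sizes for CPM were adjusted by TMM factors (edgeR 4.0.16, R 4.3.3). Exon unions, principal transcripts, overlaps and GC content came from GENCODE 29 (GRCh38), which held 58337 (96.3%) of the identifiers and all 86 members. Log2 values used a pseudocount of 0.1. Replicates are described as biological in the labels, n = 3 throughout, and no model was fitted across groups. Recovery and scaling were tested on simulated data.

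The members and lists were chosen with earlier results of these data known. One member, counted in the totals, is not reported here by name. Any other member could be named: at least the 3 highest and 3 lowest of each complex, those at 0, both genes of each pair and the 5 largest and smallest ratios of replicate 1. Of related lists the 3 highest and those at 0 were named. GABPA, COA3, COA4, NDUFAF8, UQCC1 and the overlapping genes printed with the covered members were named after their values were seen. Alternatives were other scaling, lengths, floors and pseudocounts, and each library left out in turn.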

Additional observations from a re-analysis of the deposited data

How the results depend on the processing

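Of the alternatives run, those for the count of detected members kept it between 59 and 63. The median level moved with the length used, except that of complex II per principal transcript (2.92 against 2.80 RPKM). Over exon outside other spans it was 23.1, 3.59, 62.3, 16.3 and 37.3 RPKM for complexes I to V. As CPM without length it was 42.3, 29.7, 125, 14.5 and 37.4. Per principal transcript it was 32.7, 61.4, 13.2 and 35.3 RPKM for complexes I, III, IV and V. Over detected members it was 21.7, 14.9, 53.7, 46.4 and 35.5 RPKM.

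The log2 difference of complex I from all members turned to 0.019 in CPM, within the spread, and to 0.10 ± 0.013 per principal transcript, past the spread in the opposite direction. Over detected members it passed the spread at -0.28. That of complex IV turned to 0.82 over detected members. That of complex V turned to -0.15 ± 0.042 in CPM, past the spread, and also passed it in the main direction at 0.55 outside other spans and 0.43 over detected members. With 1 library left out, complex I ranged from -0.25 to -0.14 and complex V from 0.049 to 0.11, and both passed the spread without replicate 1. Complexes II and III kept their direction and stayed past the spread under all alternatives run. The members' share of reads was 0.632% of those in protein-coding genes. The ratio of nuclear to mitochondrially encoded sums was 0.178 in CPM, 0.0784 per exon union and 0.132 per principal transcript. The cause of these shifts was not tested beyond the lengths and members that define each alternative. No paired analysis was possible because there is 1 group. Levels with few reads, such as COX4I2 and COX7B2, are limited by depth.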
